A study of Mus musculus with 18 samples.

Results

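The genes described here code for proteins that move, mark, read or bend chromatin, and were measured in differentiating mouse embryonic stem cells. They are all genes of the array whose symbol begins with Smarc, Hdac, Brd, Ing, Jarid, Kdm or Suv, with Cbx or Chd and a digit, or with Hmg and the letter a, b or n, or is Ezh2, Eed, Suz12 or Dnmt1. The rule found 32 genes with 50 probes, among 4736 genes named on the array by 15247 gene probes. Each gene is given by its brightest probe, the one with the highest mean log2 intensity over all arrays, and 10 of the 32 genes had further probes that are compared where they bear on a result. The 32 genes fall into 10 remodeller genes (SWI/SNF and ISWI subunits, the CHD remodeller Chd1 and the helicase Smarcal1), 3 histone deacetylases, 6 readers of histone marks, 6 genes of heterochromatin and Polycomb, and 7 genes of high-mobility-group proteins. Dnmt1, Suz12 and the Jarid and Kdm genes were not analysed here.

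The cells were i-Mixl1 mouse embryonic stem cells, in which doxycycline (DOX) induces Mixl1, a homeobox factor of the primitive streak. They were grown as embryoid bodies, the rounded aggregates in which such cells differentiate, with 0.1 ug/ml DOX from 1 day after plating or without DOX, and harvested at days 2, 3 and 4. Each of these 6 groups has 3 samples, and each of the 9 spotted cDNA arrays holds 1 DOX-treated and 1 untreated sample of the same day and number. All groups share the inducible line, so the untreated cells carry the transgene too, and nothing in the labels says whether the 3 samples of a group came from separate cultures, so the p-values measure only the spread between these samples, which may be technical.

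Which channel holds which sample is not settled. The deposited value table gives the red channel to DOX-treated and the green channel to untreated samples, while the dye labels give Cy3, the green dye, to DOX-treated samples and Cy5 to untreated ones. Every difference is therefore given as red over green, which is DOX over untreated by the value table and the other way round by the dye labels. All arrays run the same way, so within a day dye and treatment cannot be told apart. A bias of one dye that a probe shows on every array cancels when days are compared, either as ratios or within 1 channel.

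Chromatin remodellers use ATP to slide or evict nucleosomes, and the SWI/SNF (BAF) complex of embryonic stem cells exchanges subunits as the cells differentiate. Histone deacetylases remove the acetyl marks that bromodomain proteins read, and Polycomb proteins such as Ezh2 and Eed place the repressive methyl mark on developmental genes. High-mobility-group proteins are abundant non-histone proteins that bend DNA or bind nucleosomes, and Hmga2 among them is known for its high level in the embryo and its near absence from most adult tissues.

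The median spot intensity ranged from 209 to 491 over the 18 samples, and between 54.3% and 70.1% of the gene probes reached a signal-to-noise ratio of 1.4 in a channel. Array pairs within a day had ratios correlated with r between 0.51 and 0.73 across probes. Of the 32 chromatin genes 29 reached that limit in both channels on at least 1 array of each day. Cbx5, Hmgb2 and Suv39h1 stayed below it in both channels on all arrays of each day, which is called not well above background. A gene called above background thus had at least 1 array of the day at the limit, and its other arrays can lie under it. In these bulk samples fewer cells of a type and less RNA per cell cannot be told apart. The labelled cell type was checked against its markers. Dppa5a, Pou5f1 and Tdgf1 of the 5 measured pluripotency markers were above background at every day, and so was Eomes of the 2 measured streak markers, while T was not. The mean log2 level of the 5 pluripotency markers at day 4 ranged over 9.25 to 9.78 (red) and 9.73 to 10.28 (green), and at day 2 over 11.07 to 11.30 (red) and 11.00 to 11.25 (green). At day 4, 3 of the 5 were higher and 2 lower in red, Pou5f1 (-1.90) and Tdgf1 (-2.26). Mean levels of the 10 measured genes of dividing cells at day 4 ranged over 11.95 to 12.25 (red) and 11.98 to 12.43 (green), and 2 of the 10, Mcm2 (-0.34) and Rrm2 (-0.31), were lower in red there. Of 3 measured fibroblast genes Col1a2 was above background in both channels at every day and higher in red at day 2 (0.62, adjusted p = 0.00287), Lum was lower in red at day 3 (-0.33) and Dcn, at background in 5 of the 6 channel and day groups, lower at day 4 (-0.29). Col1a2 had no value on 1 array of day 4, and the mean level of Dcn and Lum there ranged over 6.91 to 7.26 (red) and 7.19 to 7.42 (green). The part of these markers in the values that follow was not tested.

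The 250 bases before the start of 3 high-mobility-group genes are shown first, because Hmga2 and Hmgb3 were the members well above background whose level rose between day 2 and day 4 and Hmga1 is the closest relative of Hmga2, whose level did not pass a test. The sequences are from RefSeq on GRCm38.p6, in which 26 of the 32 genes had a promoter entry, and run 5′ to 3′ on the strand of the gene. The Hmga2 sequence lies at chr10:120476470-120476719 on the minus strand, the Hmgb3 sequence at chrX:71555667-71555916 on the plus strand and the Hmga1 sequence, before one of its starts, at chr17:27556324-27556573 on the plus strand. Capitals mark CTCTCT in Hmga2, CCAAT in Hmgb3 and GGGCGG, the GC box, in Hmga1, each on either strand and with overlapping matches counted.
Hmga2: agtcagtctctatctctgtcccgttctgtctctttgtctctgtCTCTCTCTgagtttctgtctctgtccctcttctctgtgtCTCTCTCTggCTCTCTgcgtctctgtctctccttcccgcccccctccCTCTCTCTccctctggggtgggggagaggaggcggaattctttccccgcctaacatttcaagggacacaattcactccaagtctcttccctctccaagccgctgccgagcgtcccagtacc
Hmgb3: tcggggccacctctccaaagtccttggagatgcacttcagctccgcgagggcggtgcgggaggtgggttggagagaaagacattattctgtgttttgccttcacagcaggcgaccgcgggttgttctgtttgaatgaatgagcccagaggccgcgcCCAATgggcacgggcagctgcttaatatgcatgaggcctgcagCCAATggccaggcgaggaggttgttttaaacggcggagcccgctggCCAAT
Hmga1: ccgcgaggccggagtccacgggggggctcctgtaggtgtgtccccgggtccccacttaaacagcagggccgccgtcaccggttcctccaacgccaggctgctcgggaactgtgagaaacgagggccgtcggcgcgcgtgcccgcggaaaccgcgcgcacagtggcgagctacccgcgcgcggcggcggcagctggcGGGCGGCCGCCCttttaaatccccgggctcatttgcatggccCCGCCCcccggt
The Hmga2 sequence holds 7 matches to CTCTCT, and 0.292% of the 32851 promoters of this length in the table hold 7 or more while 23.4% hold any. It has no CCAAT and 1 GC box. The Hmgb3 sequence holds 3 matches to CCAAT, as many as 2.79% of all promoters reach, while 33.85% hold any. The Hmga1 sequence holds 3 GC boxes, a number reached by 8.47% of all promoters, with 32.7% holding any, and neither CCAAT nor CTCTCT. None of the 3 sequences has TATAAA, which 12.4% of promoters hold. G and C make up 56.4%, 58.8% and 72.8% of the Hmga2, Hmgb3 and Hmga1 sequences. These matches describe the letters only.

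Hmga2, which codes for a protein whose AT-hooks bind the minor groove of AT-rich DNA, had the largest ratio of the 32 genes at days 2 and 3. Its level rose in both channels in day 4 over day 2, and its channel ratio was above 0 at days 2 and 3 and below 0 at day 4. On day 2 the log2 level was 10.92, 11.32 and 10.06 in red, and 10.27, 10.66 and 9.54 in green. Day 3 gave 12.81, 13.03 and 13.09 in red, and 11.41, 11.85 and 12.07 in green. Day 4 gave 12.94, 13.52 and 13.50 in red, and 13.43, 14.03 and 14.02 in green. The red samples lay above all green samples at day 3, while red and green levels overlapped at days 2 and 4. At day 4 array 1 lay below arrays 2 and 3 in both channels.

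Within arrays the difference had 1 sign at each day. The log2 ratio of red over green was 0.65, 0.66 and 0.52 on the arrays of day 2, then 1.39, 1.18 and 1.02 on those of day 3, with -0.49, -0.51 and -0.52 on those of day 4. Hmga2 was thus higher in red at day 2 by 0.61 ± 0.083 (log2, SE, n = 3 arrays; 1.53-fold, adjusted p = 2.73e-04 in limma) and at day 3 by 1.20 ± 0.083 (2.30-fold, adjusted p = 1.09e-07). At day 4 its ratio was -0.51 ± 0.083, that is 1.42-fold lower in red (adjusted p = 4.60e-04). The differences between days, in which a bias of one dye cancels, passed the test as well. The ratio rose by 0.59 ± 0.12 in day 3 over day 2 (adjusted p = 0.0108) and fell by 1.71 ± 0.12 in day 4 over day 3 (adjusted p = 1.48e-07). Without replicate 1 the first of these differences was 0.51 with an adjusted p of 0.094, and without replicate 2 it was 0.62 with an adjusted p of 0.16.

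Over the days the level of Hmga2 rose in both channels, and in each the samples of day 3 lay above those of day 2. The red level of Hmga2 was higher by 2.21 ± 0.30 (log2) at day 3 over day 2 (adjusted p = 0.00763), and day 4 over day 3 gave 0.34 ± 0.30 (adjusted p = 0.76). The green level was higher by 2.05 ± 0.31 at day 4 over day 3 (adjusted p = 0.00872), and day 3 over day 2 gave 1.62 ± 0.31 (3.08-fold, adjusted p = 0.062). From day 2 to day 4 the rise was 5.86-fold in red (2.55 ± 0.30, adjusted p = 7.84e-04) and 12.7-fold in green (3.67 ± 0.31, adjusted p = 1.74e-04). Each array holds a single day, so day and hybridisation cannot be told apart in these levels. Eomes, a transcription factor of the primitive streak, had the same 3 signs of the channel ratio, 0.97 at day 2, 0.88 at day 3 and -1.29 at day 4, and its part in the Hmga2 values was not tested.

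The other probes of Hmga2 had the same signs. The second probe, whose clone the probe annotation marks as without PCR product, gave 0.51, 1.16 and -0.31 at days 2, 3 and 4, and all 3 passed the test (adjusted p = 0.00135, 1.19e-07 and 0.0152). The dimmest probe was not well above background in the green channel at day 3, where red was at least 1.65-fold higher (adjusted p = 0.0158). Its ratios of 0.07 at day 2, where neither channel was well above background, and -0.32 at day 4 did not pass (adjusted p = 0.88 and 0.27).

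**Figure D1:**
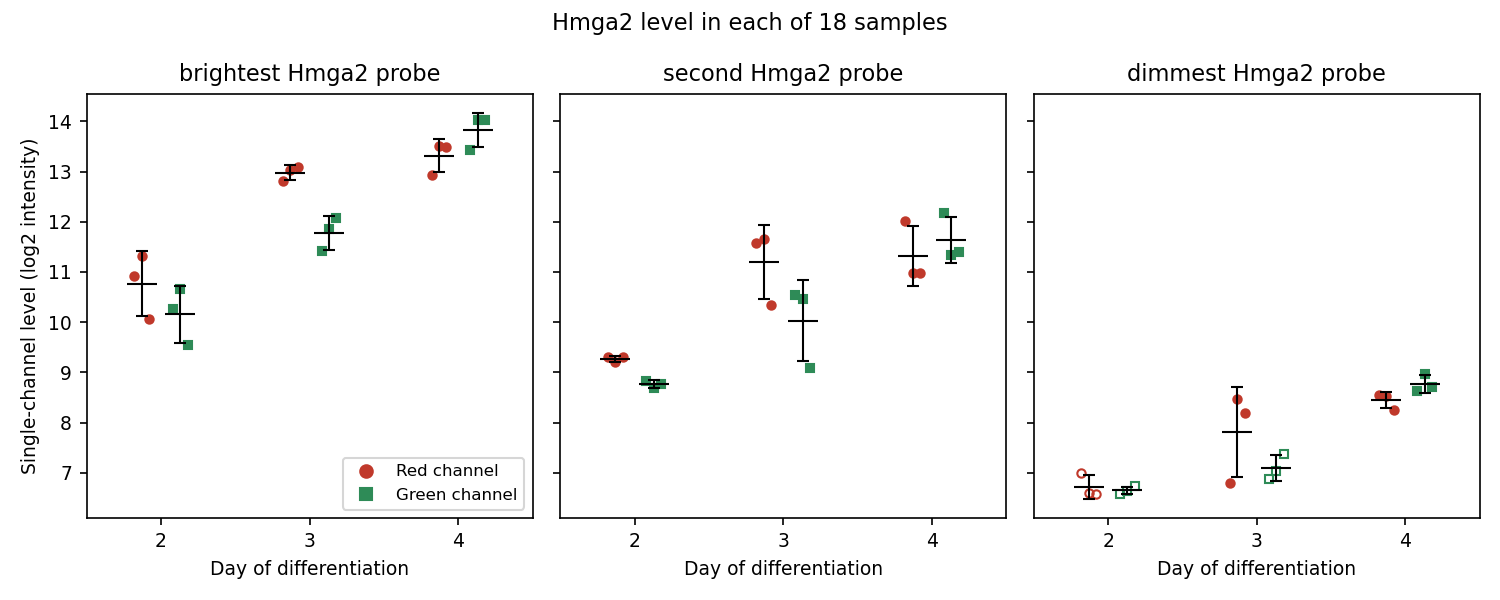
Log2 single-channel level of the 3 Hmga2 probes (vertical axis) in each of the 18 samples by day (horizontal axis), with red circles left of green squares; black lines are means ± SD of 3 samples and open symbols mark channels not well above background on the arrays of a day. For the brightest probe the red mean of 12.98 stood above the green mean of 11.78 at day 3, and the red mean of 13.32 stood below the green mean of 13.83 at day 4.

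The other high-mobility-group genes had ratios of smaller size than Hmga2 at each day. Hmga1, the ubiquitous relative of Hmga2, had ratios of 0.03 at day 2, -0.18 at day 3 and -0.22 at day 4, none past the test (95% interval at day 4 from -0.39 to -0.05, adjusted p = 0.067). Hmgb3, an HMG-box protein of stem and progenitor cells, had a log2 level of 12.61, 11.27 and 11.66 in red and 12.64, 11.65 and 12.23 in green at day 4. At day 2 it had 11.13, 10.67 and 10.78 in red and 10.96, 10.40 and 10.67 in green. The day 4 samples lay above the day 2 samples in each channel, and red and green overlapped at both days. The rise in day 4 over day 2 was 1.50 ± 0.29 in green (2.82-fold, adjusted p = 0.0168), and red gave 0.98 ± 0.32 (adjusted p = 0.11). The green rise had an adjusted p of 0.066 without replicate 2 and of 0.22 without replicate 3.

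At day 4 the Hmgb3 ratio was lower in red on each array, with -0.03, -0.38 and -0.57 (mean -0.32 ± 0.095, adjusted p = 0.0275). It was -0.30 with an adjusted p of 0.19 without replicate 2, and -0.20 with an adjusted p of 0.36 without replicate 3. The 5 probes of Hmgb1, the most studied HMG-box protein, gave no call in any ratio. Hmgn1 and Hmgn2, which bind nucleosome cores, had ratios between -0.14 and 0.15 at the 3 days. For Hmgn1, whose red levels at day 4 were 14.69, 13.99 and 14.25 and green levels 14.49, 14.04 and 14.48, the 95% interval of the day 4 ratio ran from -0.25 to 0.20. Hmgb2 had no level well above background, and no fold is given for it.

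Counts over all 32 genes are given beside the share of all named genes that passed the same test, a Benjamini-Hochberg adjusted p of at most 0.05 over all gene probes. At day 2, 2 of the 32 genes were higher in red, Hmga2 and Smarcal1, and 0 were lower, while 1.77% of all named genes were called higher and 1.69% lower. An unadjusted p under 0.05 in limma was found for 4 of the 32, beside 2651 of 15246 gene probes. At day 3 it was found for 5282 of 15247 gene probes and at day 4 for 4694 of 15243. The count lower in red stayed at 0 under each other setting tried at day 2. At day 3, 1 gene was higher in red, Hmga2, and 3 were lower, Ing1, Smarca1 and Smarcd1, against 11.0% and 12.3% of named genes. At day 4, 3 genes were higher in red, Cbx5, Smarca5 and Suv39h1, and 5 lower, Brd3, Hmga2, Hmgb3, Ing4 and Smarcf1, against 11.0% and 10.2% of named genes. Of these, Cbx5 and Suv39h1 were not well above background. As shares of the 32 genes these calls came to 6.25% higher and 0% lower at day 2, then 3.12% higher and 9.38% lower at day 3, with 9.38% higher and 15.6% lower at day 4, so that the share lay above that of all named genes for the higher calls of day 2 and the lower calls of day 4 and below it for the rest. The median size of the ratio was 0.120 (log2) for these genes and 0.0894 for all named genes at day 2, then 0.106 against 0.143 on day 3 with 0.100 against 0.138 on day 4. The difference from other genes was not tested. The split of the day 4 calls depended on the processing, with 1 gene higher and 4 lower under plain background subtraction and 1 and 5 with loess per print block. It was 1 and 6 with dim probes left out and 0 and 5 on the deposited scaled intensities. The last 2 settings tested 28 and 29 of the 32 genes and held neither Cbx5 nor Suv39h1, so their calls could not appear there. At day 3 it was 1 and 1 under plain background subtraction and 2 and 3 with loess per print block.

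In each difference between days 2 genes passed. The ratio of 1 gene rose in day 3 over day 2, Hmga2, and that of 1 fell, Smarcf1, against 1.92% and 2.83% of named genes. In day 4 over day 3 the ratio of 1 gene rose, Cbx5, and that of 1 fell, Hmga2, against 5.58% and 3.91%.

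**Figure D2:**
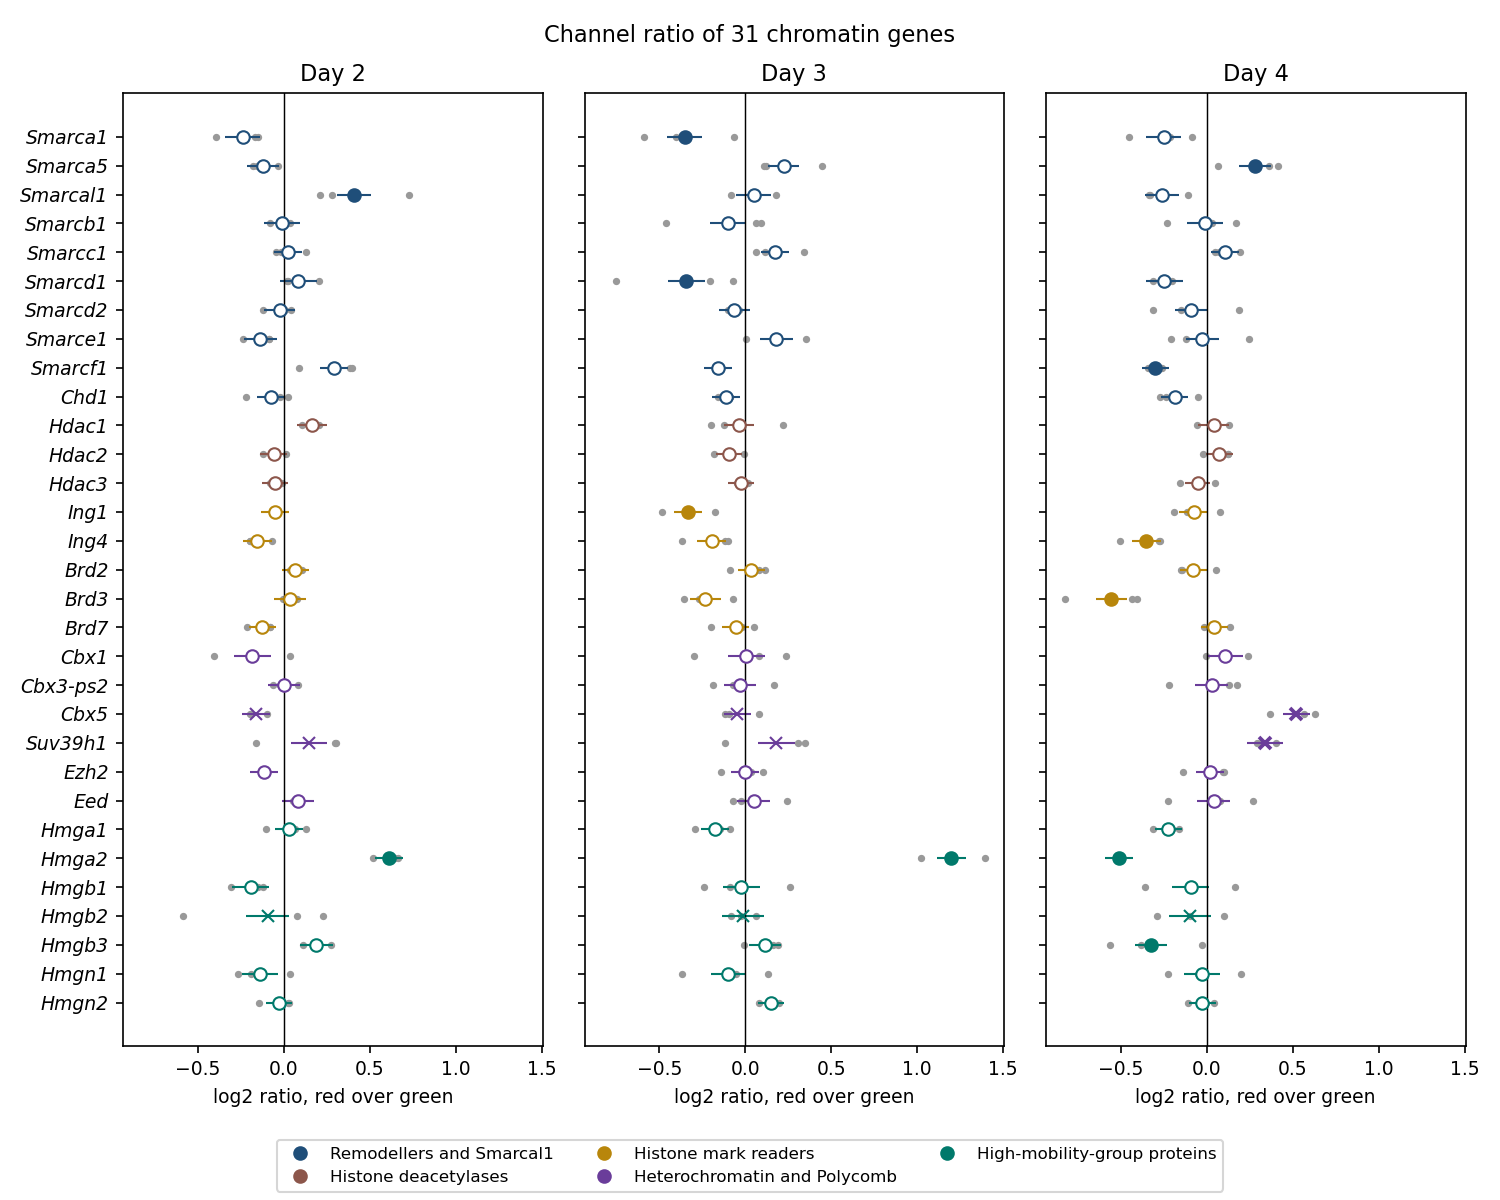
Log2 ratio of red over green (horizontal axis) of 31 of the 32 chromatin genes (vertical axis) at days 2, 3 and 4, coloured by family; grey points are single arrays, large symbols the fitted mean with its SE, filled where the adjusted p was at most 0.05. Crosses mark Cbx5, Suv39h1 and Hmgb2, not well above background in either channel (thick crosses passed the test); Hmga2 lies farthest to the right at day 3, at 1.20.

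Among the 10 remodeller genes the ratios lay between -0.35 and 0.41. Smarcf1 is the older symbol of Arid1a, the large DNA-binding subunit of the BAF complex, and its ratio fell between day 2 and day 3. Its log2 level was 12.46, 12.54 and 12.54 in red and 12.37, 12.15 and 12.15 in green at day 2, and 12.10, 11.72 and 11.51 in red and 12.39, 11.98 and 11.86 in green at day 4. Red was above green in all samples of day 2, and at day 4 the channels overlapped although red was below green on each array. The ratio was 0.29 ± 0.080 at day 2 (adjusted p = 0.067), -0.16 ± 0.080 at day 3 (adjusted p = 0.17) and -0.30 ± 0.080 at day 4 (adjusted p = 0.0179). It fell by 0.45 ± 0.11 in day 3 over day 2 (adjusted p = 0.0424).

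The second Smarcf1 probe was higher in red at day 2 by 0.39 ± 0.093 (adjusted p = 0.0301), and gave 0.27 at day 3 (adjusted p = 0.054) and -0.11 at day 4 (adjusted p = 0.46). Its ratio differed by -0.12 ± 0.13 in day 3 over day 2 (adjusted p = 0.71) and by -0.38 ± 0.13 in day 4 over day 3 (adjusted p = 0.12), neither past the test, and the 2 probes were not tested against each other. In the red channel its level fell by 1.06 ± 0.19 in day 4 over day 2 (adjusted p = 0.00821), where the brightest probe gave -0.74 ± 0.26 (adjusted p = 0.15). For the brightest probe, the day 4 ratio had an adjusted p of 0.098 without replicate 2 and of 0.17 without replicate 3. Its difference between days 3 and 2 lost the call without any 1 replicate, with adjusted p-values of 0.058, 0.37 and 0.24 without replicates 1, 2 and 3.

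Smarca1 and Smarca5 are the ATPases of the ISWI remodellers, which space nucleosomes evenly. Both ratios were below 0 at day 2, -0.24 for Smarca1 and -0.12 for Smarca5, and at days 3 and 4 Smarca1 gave -0.35 and -0.25 while Smarca5 gave 0.22 and 0.28. Smarca1 had red levels of 9.45, 9.73 and 9.44 and green levels of 10.04, 10.13 and 9.50 at day 3, so that red and green overlapped. Its ratio was below 0 at each day and passed the test at day 3 (-0.35 ± 0.10, 1.28-fold lower in red, adjusted p = 0.0246), with an adjusted p of 0.18 without replicate 1 and 0.16 without replicate 2. Smarca5 had red levels of 11.76, 11.70 and 11.51 and green levels of 11.69, 11.29 and 11.15 at day 4, with red above green on each array. Its ratio at day 4 was 0.28 ± 0.092 (1.21-fold higher in red, adjusted p = 0.0459), and the call was lost under 8 of 10 alternatives. The ratio was 0.100 with loess per print block (adjusted p = 0.33) and 0.18 as the mean over probes (adjusted p = 0.12), with an adjusted p of 0.25 without replicate 2 and 0.29 without replicate 3. The brightest Smarca5 probe, which gave these values, is from a clone marked as giving multiple PCR bands. The other 2 Smarca5 probes, from clones marked as without product, gave 0.04 and 0.23 at day 4 and did not pass. In the green channel the Smarca5 level fell by 0.84 ± 0.19 in day 4 over day 2 (adjusted p = 0.0323), and red gave -0.43 ± 0.20 (adjusted p = 0.28). The green change was -0.39 as the mean over probes (adjusted p = 0.11), and it had an adjusted p of 0.21 without replicate 2 and 0.37 without replicate 3.

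Smarcd1 and Smarcal1 each passed at a single day. Smarcd1, an accessory BAF subunit, had ratios of -0.20, -0.07 and -0.75 at day 3 (mean -0.34 ± 0.11, adjusted p = 0.0345), and without replicate 3, the array with the lowest ratio, it was -0.14 (adjusted p = 0.43). The call was also lost without replicate 1 (adjusted p = 0.076) and without replicate 2 (adjusted p = 0.0503). Smarcal1, an annealing helicase at stalled replication forks, had red levels of 6.68, 9.10 and 10.46 and green levels of 6.40, 8.38 and 10.25 at day 2. On array 1 these levels were close to those of Cbx5, a gene not well above background, at 6.30 in red and 6.49 in green. The Smarcal1 arrays of day 2 spanned more than 3 units on this log2 scale, far more than the difference between channels. That difference was 0.41 ± 0.099 (1.32-fold higher in red, adjusted p = 0.0348). That ratio was 0.47 with an adjusted p of 0.16 without replicate 1, and 0.25 with an adjusted p of 0.30 without replicate 2. Its change in day 4 over day 2 was 1.42 ± 0.77 in red and 2.08 ± 0.79 in green, and neither passed (adjusted p = 0.40 and 0.20).

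Chd1, a remodeller that binds the methyl mark of active promoters and is required for the open chromatin of embryonic stem cells, had ratios of -0.08, -0.11 and -0.19 at days 2, 3 and 4, none past the test. The remaining remodeller genes Smarcb1, Smarcc1, Smarcd2 and Smarce1 had no call in any comparison. The Smarcd2 probe is from a clone marked as without PCR product. Over the 10 genes the median ratio was -0.02 at day 2, -0.08 at day 3 and -0.14 at day 4, beside 0.00, 0.01 and 0.01 over all named genes.

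The 3 histone deacetylases Hdac1, Hdac2 and Hdac3 passed no test. In limma 0 of the 3 had an unadjusted p under 0.05 at any day, beside the counts of gene probes given above. Hdac1, a class I enzyme of the NuRD, Sin3 and CoREST complexes, had log2 levels of 12.95, 12.81 and 12.79 in red and 12.82, 12.86 and 12.75 in green at day 4, and the channels overlapped. Its ratio was 0.16, -0.04 and 0.04 at days 2, 3 and 4, with a 95% interval at day 4 from -0.15 to 0.23. Hdac3, another class I enzyme, had a day 4 interval from -0.21 to 0.11. Its level in day 4 over day 2 was -0.53 ± 0.34 in red and -0.53 ± 0.33 in green, neither past the test (adjusted p = 0.50 and 0.48).

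Of the 6 readers of histone marks, 1 was lower in red at day 3 and 2 at day 4, beside 12.3% and 10.2% of named genes, and 0 were higher at any day. An unadjusted p under 0.05 in limma was found for 0, 4 and 3 of the 6 at days 2, 3 and 4. Over all gene probes it was found for 2651 of 15246, 5282 of 15247 and 4694 of 15243 at these days. Brd3, a bromodomain protein of the BET family that binds acetylated histones, had log2 levels of 10.54, 10.30 and 10.46 in red and 10.97, 10.71 and 11.28 in green at day 4. All red samples lay below all green ones. The ratio at day 4 was -0.56 ± 0.092 (1.47-fold lower in red, adjusted p = 5.41e-04), and Brd3 kept its call without any 1 replicate. Its 2 dimmer probes gave -0.28 and -0.16 at day 4, with the same sign, and did not pass (adjusted p = 0.16 and 0.46). Brd2 and Brd7 had no call.

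The ING proteins bind the methyl mark of active promoters through a PHD finger, Ing1 as part of a Sin3 deacetylase complex and Ing4 as part of an HBO1 acetyltransferase complex. Ing1 had log2 levels of 11.95, 12.08 and 11.99 in red and 12.44, 12.42 and 12.16 in green at day 3, with no overlap. Its ratio there was -0.33 ± 0.083 (1.26-fold lower in red, adjusted p = 0.0106), with an adjusted p of 0.10 without replicate 1 and 0.090 without replicate 2. A second Ing1 probe gave -0.22 at day 3 (adjusted p = 0.13), and the dimmest gave -0.71 at day 3 and -0.49 at day 4 (adjusted p = 6.86e-04 and 0.0111). Ing4 had log2 levels of 9.87, 10.31 and 9.68 in red and 10.15, 10.58 and 10.19 in green at day 4, so that the channels overlapped, with red below green on each array. Its ratio was -0.35 ± 0.084 (1.28-fold lower in red, adjusted p = 0.00897), with an adjusted p of 0.054 without replicate 2 and 0.17 without replicate 3.

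**Figure D3:**
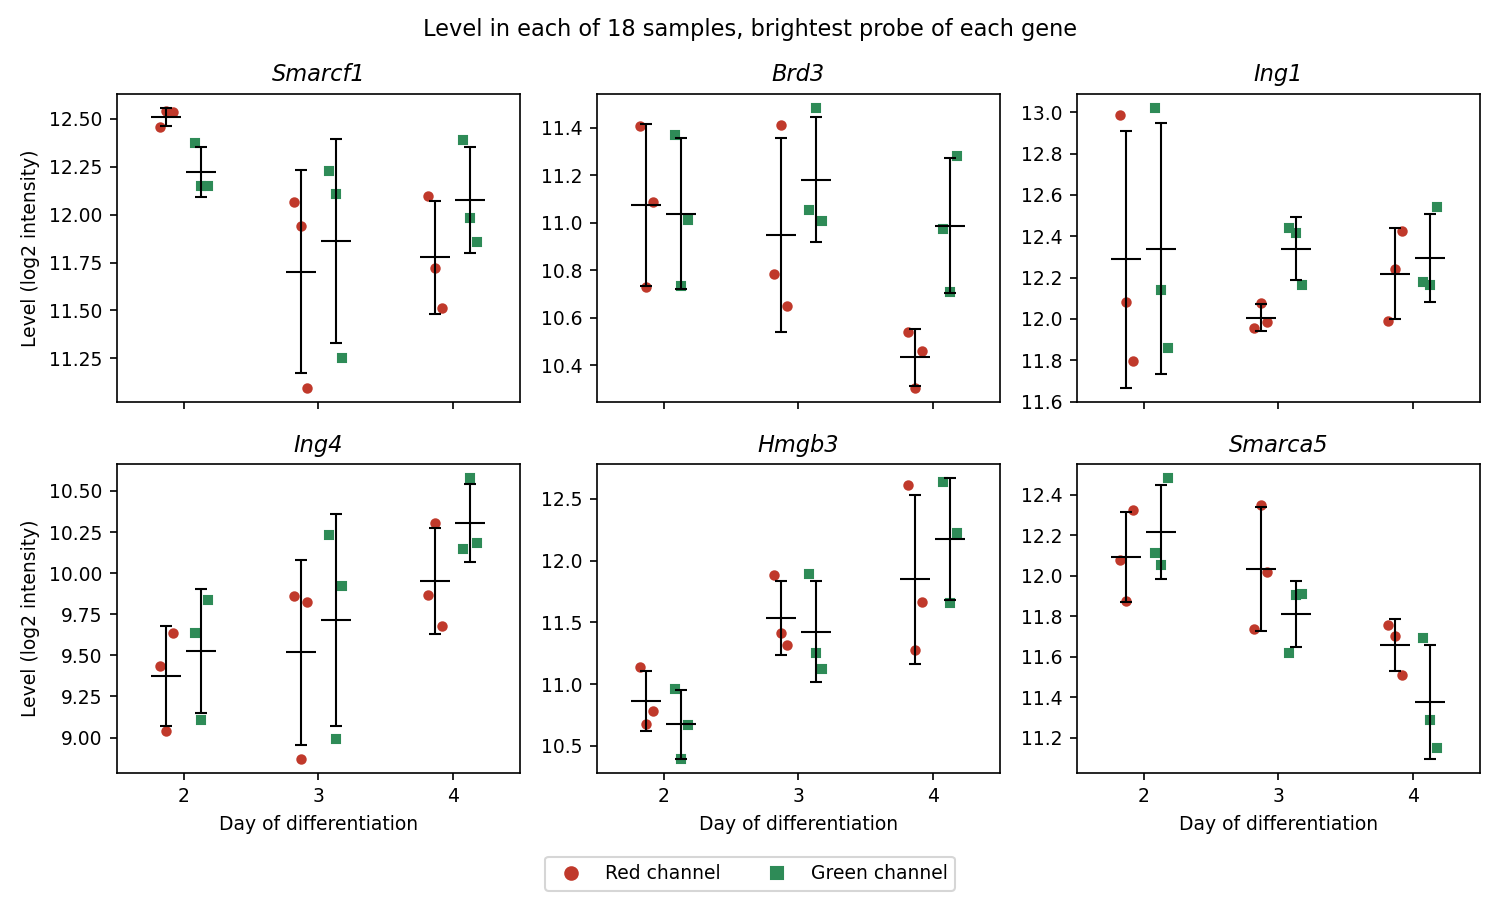
Log2 level (vertical axis, a separate range for each gene) of Smarcf1, Brd3, Ing1, Ing4, Hmgb3 and Smarca5 in each of the 18 samples by day (horizontal axis), with red circles left of green squares and black means ± SD of 3 samples. At day 4 the red mean of Brd3 was 10.43 and the green mean 10.99, with no overlap, while red and green overlapped for the other 5 genes.

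Among the 6 genes of heterochromatin and Polycomb, Cbx5 and Suv39h1 passed at day 4, and neither was well above background in any channel, so no fold is given. Cbx5 codes for HP1-alpha, which binds the methyl mark that the enzyme Suv39h1 places on heterochromatin. Their fitted ratios at day 4 were 0.52 ± 0.080 (adjusted p = 2.90e-04) and 0.34 ± 0.11 (adjusted p = 0.0374), and the ratio of Cbx5 rose by 0.57 ± 0.11 in day 4 over day 3 (adjusted p = 0.00465). The size of the Cbx5 values depended on the background model, and with plain background subtraction the day 4 ratio was 2.39 (adjusted p = 1.51e-04) and the difference between days 2.38 (adjusted p = 5.49e-04). The call of Suv39h1 was lost without any 1 replicate, with adjusted p-values from 0.065 to 0.15, and that of the Cbx5 difference without replicate 1 (0.071) and replicate 2 (0.0504). Ezh2, the methyltransferase of Polycomb complex PRC2, had log2 levels of 12.83, 13.18 and 13.49 in red and 12.96, 13.09 and 13.39 in green at day 4. The channels overlapped, and the ratio of 0.02 had a 95% interval from -0.15 to 0.19. Eed, the PRC2 subunit that binds the mark Ezh2 places, had ratios of 0.08, 0.05 and 0.04 at the 3 days. This probe is from a clone marked as giving multiple PCR bands. A dimmer Eed probe, marked as a single band, gave -0.21, 0.05 and -0.25, none past the test (adjusted p = 0.29, 0.78 and 0.10 in limma). Cbx1, another HP1 protein, and the pseudogene Cbx3-ps2, whose probe may share sequence with Cbx3, had no call. The Cbx3-ps2 probe is from a clone marked as without PCR product.

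Over the days the levels of most of the 32 genes did not pass the test. In day 4 over day 2, 2 genes rose in red, Hmga2 and Cbx5, and 0 fell, against 4.94% and 4.42% of named genes. The limma count of unadjusted p under 0.05 was 7 of the 32, beside 2758 of 15242 gene probes, and with probes of a gene averaged 1 gene fell. In green 2 genes rose, Hmga2 and Hmgb3, and 1 fell, Smarca5, against 4.18% and 4.14% of named genes. There 5 of the 32 had an unadjusted p under 0.05 in limma, beside 2698 of 15242 gene probes. Cbx5 was not well above background at either day, and its red change was 0.76, against 2.17 with plain background subtraction, with an adjusted p between 0.13 and 0.17 when any 1 replicate was left out. The median change of the 32 genes was 0.05 in red and -0.02 in green, beside -0.02 in each channel over all named genes. Large changes short of the test were 1.42 in red and 2.08 in green for Smarcal1, 0.58 and 0.78 for Ing4, -0.71 and -0.38 for Smarcd1, -0.64 and -0.05 for Brd3, -0.50 and -0.39 for Chd1, and -0.40 and -0.36 for Eed. The dimmer, single-band Eed probe gave -0.96 in red and -0.93 in green (adjusted p = 0.23 and 0.25 in limma). For the genes that did not pass, the half-width of the 95% interval ranged from 0.35 to 1.72 in red and from 0.28 to 1.79 in green. These intervals are not adjusted for the number of probes, and changes larger than the half-width could fail the test. The red change of Brd3 had an interval from -1.17 to -0.11 and an adjusted p of 0.17 in limma. The smallest change detectable with 3 arrays a day was not determined.

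**Figure D4:**
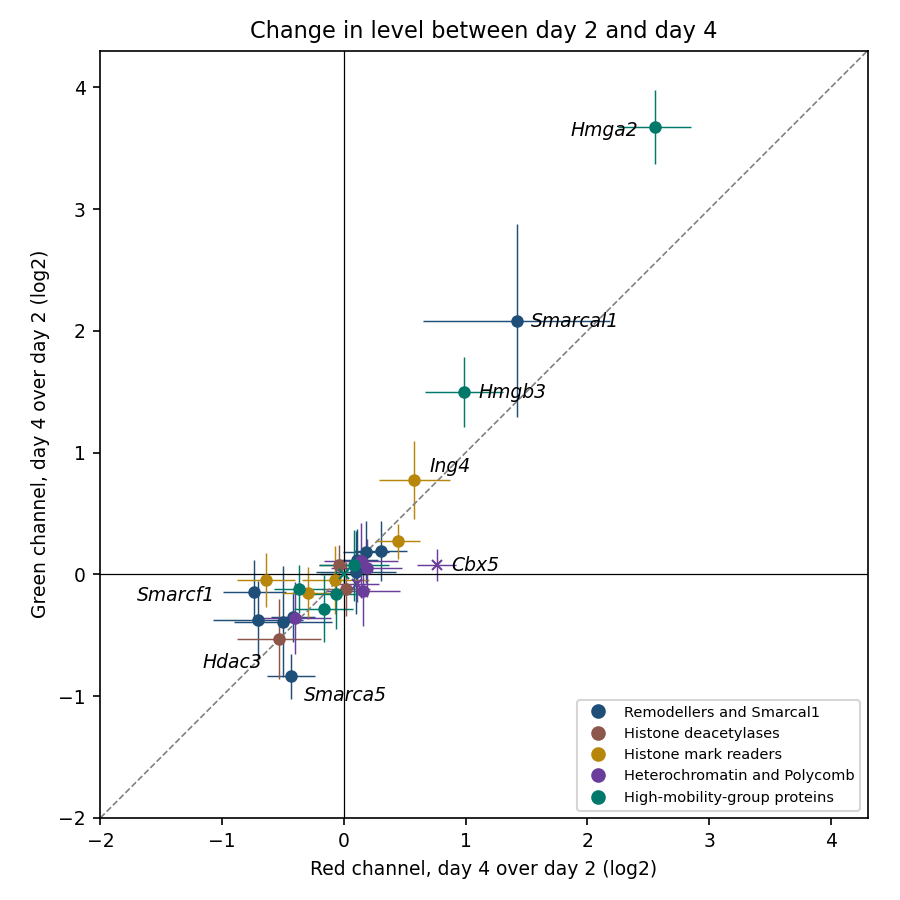
Log2 change of level in day 4 over day 2 in the red channel (horizontal axis) and the green channel (vertical axis) for 31 of the 32 chromatin genes, coloured by family, with SE bars; the dashed line marks equal change and crosses the genes not well above background. Hmga2 lies apart from the rest at 2.55 and 3.67, and most genes lie near 0 in both channels.

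The wider chromatin machinery was followed with 8 lists of 131 genes outside the symbol rule, of which 68 were measured. Of these 68 genes 1 was higher and 1 lower in red at day 2, 4 higher and 9 lower at day 3, and 4 higher and 11 lower at day 4, with median ratios of -0.00, -0.09 and -0.14. Over all named genes 1.77% were higher and 1.69% lower at day 2, then 11.0% higher and 12.3% lower at day 3, with 11.0% higher and 10.2% lower at day 4. Whether the lists differ from these shares was not tested. Histone chaperones, which carry and deposit histones, had 16 measured genes, with 0 higher and 1 lower at day 2, 1 higher and 3 lower at day 3 and 0 higher and 3 lower at day 4. Npm3, a nucleoplasmin, was higher in red at day 3 (0.60 ± 0.088, adjusted p = 1.88e-04) and lower at day 4 (-0.43 ± 0.088, adjusted p = 0.00334), the same signs as Hmga2 at those days, and its ratio fell by 1.03 ± 0.12 in day 4 over day 3. Anp32a, an acidic chaperone of the SET complex, was lower in red at each day, with -0.31 at day 2, -0.55 at day 3 and -0.34 at day 4 (adjusted p = 0.0299, 9.21e-05 and 0.00541). Hira, the chaperone of histone H3.3, was lower in red at day 3 (-0.43) and day 4 (-0.37), and Set, the partner of Anp32a, at day 3 (-0.26).

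Partners of the deacetylases and of Polycomb also had calls. Of 11 measured genes in a list of NuRD, Sin3 and other deacetylase genes, 1 was higher at day 2, 1 higher and 2 lower at day 3, and 1 higher and 2 lower at day 4, beside the same shares of named genes. Sin3a, the scaffold of the Sin3 complex, was lower in red at day 3 (-0.36 ± 0.081) and day 4 (-0.28 ± 0.081), Rbbp7 higher at day 3 (0.32) and the related histone binder Rbbp4 lower at day 4 (-0.28). The day 2 call was Sirt1 (0.45), an NAD-dependent deacetylase that is not a NuRD or Sin3 subunit. Mta3, a NuRD subunit, was higher at day 4 (0.31). Of 8 measured Polycomb genes, 2 were higher and 1 lower at day 3 and 1 higher and 3 lower at day 4. Phc2, a PRC1 subunit, was higher in red at day 3 (0.50 ± 0.10, adjusted p = 0.00341) and lower at day 4 (-0.40 ± 0.10, adjusted p = 0.0140). Ezh1, the relative of Ezh2, was lower at day 3 (-0.42) and day 4 (-0.25), Phf1 higher at day 3 (0.36) and day 4 (0.27), and Phc1 lower at day 4 (-0.29).

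Calls in the remaining lists are read against the same shares. Of 10 measured genes in a list of SWI/SNF, ISWI, INO80 and other remodellers outside the symbol rule, 1 was lower at day 4. This was Atrx (-0.32 ± 0.074), a remodeller of heterochromatin outside these 3 groups. The ratio of Baz1a, the partner of Smarca5 in the ACF complex, fell by 0.73 ± 0.19 in day 4 over day 3 (adjusted p = 0.0310). Of 6 measured histone acetyltransferases, Ncoa1 (-0.61) and Kat2b (-0.47) were lower at day 3. Of 9 histone methyltransferases, the arginine methyltransferase Prmt2 was higher at day 4 (0.61 ± 0.083, adjusted p = 8.75e-05). Of 5 histone variants and linker histones, the linker histone H1f0 was lower in red at day 3 (-0.39) and day 4 (-0.45), Cenpa lower at day 4 (-0.49) and H2az1 higher at day 4 (0.31). None of 3 measured readers and maintenance factors of DNA methylation had an adjusted p of at most 0.05 in limma. At day 4, 2 of them had an unadjusted p under 0.05, beside 4694 of 15243 gene probes. H1f0, a linker histone of differentiating cells, rose with the days, by 1.74 ± 0.37 in red and 2.33 ± 0.36 in green in day 4 over day 2 (adjusted p = 0.0219 and 0.00533), as did Phc2 by 1.08 ± 0.20 and 1.53 ± 0.22, while Phc1 fell by 1.89 ± 0.28 in red and 1.43 ± 0.27 in green. Hira fell too, with -1.37 ± 0.26 in red and -1.09 ± 0.27 in green (adjusted p = 0.0114 and 0.0492), and Mta3 in green with -0.84 ± 0.19 (adjusted p = 0.0331). Of the 68 measured genes 2 rose and 2 fell in red, beside 4.94% and 4.42% of named genes. In green 2 rose and 4 fell, beside 4.18% and 4.14%.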

How the data were processed

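RNA of 18 samples was measured on 9 spotted 2-colour cDNA arrays of 17327 spots. Each deposited table of a day gives, per the file headers, spot intensity for both channels (median foreground minus background, linear, not normalized), with a signal-to-noise score and a flag. Image software and genome build are not given in the sources used here. The deposited value table holds the authors' scaled intensity of each sample; days were scaled separately there, so it served only as an alternative.

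The fits used limma 3.58.1 in R 4.3.3. Spots with a flag of at most -75 were dropped, the background model was normexp with an offset of 50, and each array's ratios were normalized by a loess curve (span 0.3) over gene probes. The 9 log2 ratios were fitted with day as the only factor (6 residual degrees of freedom) and moderated by empirical Bayes, which tested each day and each change between days. Single-channel levels were taken after loess and Aquantile scaling, over the 9 samples of a channel. All tests were two-sided, with Benjamini-Hochberg adjustment over all gene probes at 0.05. A channel was called not well above background when the 3 arrays of a day all had a signal-to-noise ratio under 1.4. The number of arrays limits the precision.

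The array pairs a red with a green sample. Replicate numbers were not used to pair arrays across days in the main fit. Deviations of same-numbered samples correlated over 0.1 in 2 of 9 pairs in red and 3 of 9 in green. Their r ranged from -0.32 to 0.45 in red and from -0.27 to 0.43 in green, which cannot settle whether the numbers pair. Scripts were tested on simulated data. Promoter sequences are from RefSeq. Of the 32 gene symbols, 1 was updated (Smarcf1, now Arid1a) and 1 kept as an older name.

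The genes, families and lists were chosen with earlier results of these data known. Named with values are all genes past the test in a ratio or a difference between days, the 5 largest changes each way per channel between days 2 and 4, the brightest member of each family, and up to 4 genes past the test per list; the values of 1 of the 32 genes and of 1 gene of the lists are not reported here. Alternatives changed background, normalization, dim probes, probe choice, replicates, pairing or the processed values.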

Additional observations from a re-analysis of the deposited data

Results flagged for a closer look

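The channel ratio of 3 genes differed between days by the test of the difference itself, in 4 comparisons, and each value is a log2 difference of red over green. The Hmga2 ratio changed by 0.59 ± 0.12 in day 3 over day 2 (adjusted p = 0.0108 in limma) and by -1.71 ± 0.12 in day 4 over day 3 (adjusted p = 1.48e-07), and it was higher in red on 3 of 3 arrays at days 2 and 3 and lower on 3 of 3 at day 4. The Smarcf1 ratio changed by -0.45 ± 0.11 in day 3 over day 2 (adjusted p = 0.0424), above 0 on 3 of 3 arrays at day 2 and below 0 on 3 of 3 at day 3. This call was lost under 7 of 10 alternatives, among them leaving out any 1 replicate. The second Smarcf1 probe had a mean ratio above 0 at day 3, and its difference did not pass. The Cbx5 ratio changed by 0.57 ± 0.11 in day 4 over day 3 (adjusted p = 0.00465), with both channels not well above background, and by 2.38 with plain background subtraction. Groups of 3 samples were not screened for single samples that stand apart.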

How the results depend on the processing

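All 222 alternatives of the 23 named gene results kept the direction, but the results were chosen as calls of the main fit. Some alternatives also leave the log2 value unchanged by design, so the direction could not change there. These are the changes of pairing or replicate block, leaving out dim probes, and averaging for genes with 1 probe. The rise of Hmga2 in day 4 over day 2, in red and in green, gave the 2 results that kept the call under each of their alternatives. The Hmga2 ratios of days 2, 3 and 4 and its change in day 4 over day 3 kept the call under 9 of 10 alternatives. Several sizes moved by over 1.5 times, among them Cbx5 with plain background subtraction (day 4 ratio 2.39 against 0.52). With loess per print block at day 4 so did Smarca5 (0.100 against 0.28) and Ing4 (-0.23 against -0.35). On the deposited scaled intensities Smarcal1 moved at day 2 (0.19 against 0.41). With probes of a gene averaged, ratios moved for Hmga2 at day 2 (0.40 against 0.61), Brd3 at day 4 (-0.33 against -0.56) and Smarcf1 in day 3 over day 2 (-0.29 against -0.45). Averaging also moved Smarca5 at day 4 (0.18 against 0.28) and in green, day 4 over day 2 (-0.39 against -0.84). Leaving out replicate 3 moved Smarcd1 at day 3 (-0.14 against -0.34) and Hmgb3 at day 4 (-0.20 against -0.32). Smarcal1 at day 2 moved without replicate 2 (0.25 against 0.41). Counts of called genes moved more. With plain background subtraction 1, 2 and 5 genes were called at days 2, 3 and 4, against 2, 4 and 8. On the deposited scaled intensities there was 1 call at day 2, 5 calls at day 4, and 1 call in each difference between days. Median scaling, and averaging the probes of a gene, left 1 in day 3 over day 2. Leaving out dim probes left 1 in red, day 4 over day 2. Median scaling gave 1 higher and 5 lower genes at day 3, and 2 higher and 7 lower at day 4, against 1 and 3, and 3 and 5. Apart from genes that a setting left out, the cause of these changes was not tested.

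Without 1 replicate, which leaves fewer arrays, the counts ranged from 1 to 2 at day 2, 1 to 3 at day 3, 3 to 7 at day 4, 0 to 1 in day 3 over day 2 (0 without replicate 1 and without replicate 2, in limma), 1 to 2 in day 4 over day 3, 1 to 1 in red and 1 to 3 in green. Without the replicate block, that is with red and green as unpaired groups, 0 genes were called in the 3 days and both differences. In limma 0, 1, 3, 0 and 2 genes had an unadjusted p under 0.05, beside 439, 1120, 933, 242 and 464 of all gene probes. Of all gene probes 80, 150 and 164 were called at days 2, 3 and 4. With the replicate number as a replicate block in the time course 3 genes were called in red and 2 in green, and same-numbered ratios correlated over 0.1 across days in 1 of 9 pairs. Signal over background limits Cbx5, Hmgb2 and Suv39h1, and the low levels on array 1 limit Smarcal1 at day 2. The dye orientation limits every direction.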
